A study of Homo sapiens with 3 samples.

Results

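The report concerns genes of protein folding and secretion in the endoplasmic reticulum (ER) of KMS11 cells, an established human multiple myeloma line that carries the t(4;14) translocation. The list of 52 genes was set by function and not by a cutoff on measured values, but with earlier results of these data known. Each gene was found through probe sets annotated with its symbol alone on the HG-U133 Plus 2.0 array, and the brightest probe set represents the gene. There were 48 measured members among 19775 genes, and the other 4 were not analysed here: PDIA5, TXNDC5 and SYVN1 were named only on probe sets that list several symbols, and no probe set carried the name SEC61G. All cells received a lentivirus with polybrene and were collected at 48 h. The control virus carried a hairpin against luciferase (shLuc), and the other cultures received one of the MMSET hairpins, shMMSET#2 or shMMSET#4. MMSET (current symbol NSD2) is the histone methyltransferase gene that the translocation activates, and the series asks which regulators of myeloma cell survival depend on it. There was 1 array per group, and no uninfected culture was analysed here, so no test was run and no value has an error from replicates. "Lower" and "higher" describe these 3 arrays, a gene was called where 2 arrays differed by at least 1.5-fold, and both comparisons with shLuc share the same control array. Where 3 signals of a gene follow each other, they are those of the shLuc, shMMSET#2 and shMMSET#4 cultures in this order, and a pair of folds belongs to shMMSET#2 first.

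Plasma cells and myeloma cells secrete large amounts of immunoglobulin, which enters the ER through the Sec61 channel, loses its signal peptide, folds with the help of chaperones and oxidoreductases and leaves in COPII-coated vesicles. Proteins that fail to fold are sent back to the cytosol for degradation (ERAD). When unfolded proteins build up, the sensors IRE1 (gene ERN1), PERK (gene EIF2AK3) and ATF6 start the unfolded protein response, in which the transcription factors XBP1, ATF4 and ATF6 raise the genes of this machinery.

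The targeted gene NSD2 had signals of 10300, 7032 and 7476 on its brightest probe set. These are 1.46-fold and 1.38-fold below shLuc, so NSD2 itself did not pass 1.5-fold with either hairpin there. Of its 6 probe sets, all 6 lay below shLuc with shMMSET#2 and 5 did so with shMMSET#4. The plasma cell markers SDC1, TNFRSF17 and POU2AF1 had signals far above the floor of 41.2 on every array, as did SLAMF7. The plasma cell marker CD38 was dim, with signals of 94.4, 129 and 151. CD14, CD2, MPO, PPBP and VWF, markers of other cells, lay below the floor on every array. EPCAM, an epithelial marker, had signals of 8099, 4391 and 10651. Of the 15 measured markers of other cell types, 5 were at the floor on all arrays and 7 passed the filter, and their signals summed to 9855, 5599 and 12054. The deposited values share a trimmed mean of 500.1, whereas their medians were 77.4, 62.0 and 59.5. The control probe sets for the 3' end of ACTB exceeded those for its 5' end by 1.70 on the log2 scale with shLuc and by 1.14 with each MMSET hairpin. The same ratio for GAPDH was 0.04, 0.10 and 0.00. The ACTB ratio thus sets the shLuc array apart and the GAPDH ratio does not, and the part of RNA quality in the comparisons with shLuc was not tested.

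The ER genes did not move as a block against the control hairpin, but on their brightest probe sets they differed between the MMSET hairpins mostly in 1 direction. With shMMSET#4, 12 of the 48 members (25%) had a signal at least 1.5-fold above that with shMMSET#2, against 16.9% of the 13296 genes tested, and 0 members were at least 1.5-fold below it, against 13.6%. The median log2 ratio of shMMSET#4 to shMMSET#2 was 0.43 over the members and 0.00 over all genes tested, and 39 of the 48 members lay above 0, against 50% of all genes. Against shLuc, 11 members were lower with shMMSET#2, a share of 22.9% against 22.5% of all genes, and 4 were higher, against 16.2%. With shMMSET#4 the balance was the other way: 4 members were lower, against 20.6% of all genes, and 13 were higher, a share of 27.1% against 17.3%. With both hairpins only EIF2AK3 and DERL1 were lower (4.17% of members, against 11.9% of all genes), and CRELD2, CANX, ERP29 and ERP44 were higher (8.33%, against 8.6%). The share of higher members with both hairpins was thus near the background. In RNA from a whole culture, fewer cells that express a gene and less of its RNA per cell cannot be told apart. All 48 members passed the filter on low signals, and none was at the floor on any array on its brightest probe set. Most members were bright, and 45 were among the 4944 genes at or above the 75th percentile of mean signal. There, 0 members were lower and 10 higher with shMMSET#4 than with shMMSET#2, against 7.71% and 10.4% of those genes. Against shLuc, 10 were lower and 4 higher with shMMSET#2 (13.8% and 16.7%). With shMMSET#4, 4 were lower and 12 higher (11.3% and 16.2%). With both, 2 were lower and 4 higher (5.52% and 9.87%).

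**Figure D1:**
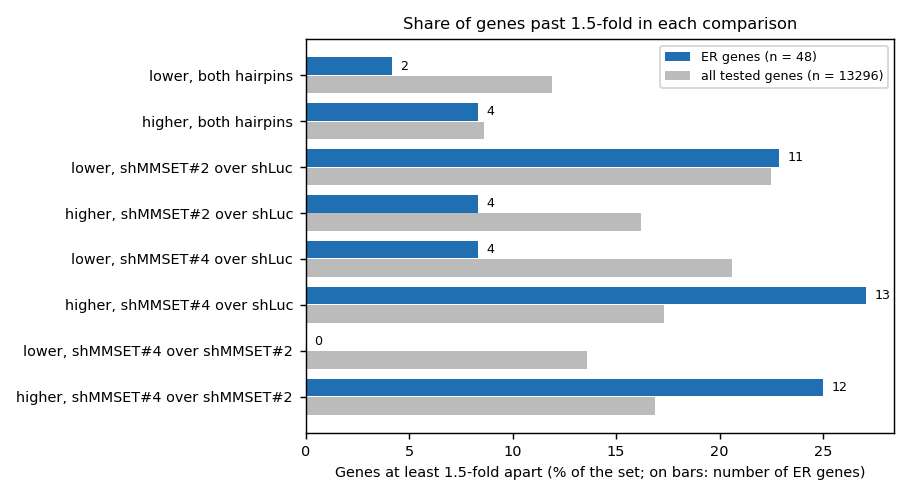
Share of genes at least 1.5-fold apart (horizontal axis, percent) in each comparison, for the 48 measured ER genes (blue, with their number) and all 13296 genes tested (grey), with 1 array per group. In the comparison of the hairpins with each other, 12 ER genes were higher and 0 were lower with shMMSET#4.

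The size of the ratios to shLuc depends on how the arrays are scaled. With every array set to the same median signal, the median of all genes tested was 0.25 in place of -0.04 for shMMSET#2, and 0.34 in place of -0.02 for shMMSET#4. The median of the members moved with it, to 0.09 in place of -0.23 and to 0.53 in place of 0.15, so that it stayed below that of all genes with shMMSET#2 and above it with shMMSET#4. The split of the calls moved too: 6 members were then lower and 9 higher with shMMSET#2, and 1 was lower and 20 were higher with shMMSET#4. Of all genes, 13.2% were then lower and 30.1% higher with shMMSET#2, and 10.1% lower and 34.7% higher with shMMSET#4. The comparison of the hairpins with each other was less affected, with 14 members higher (against 19.6% of all genes) and 0 lower (against 11.8%) and a member median of 0.49 beside 0.06 for all genes.

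**Figure D2:**
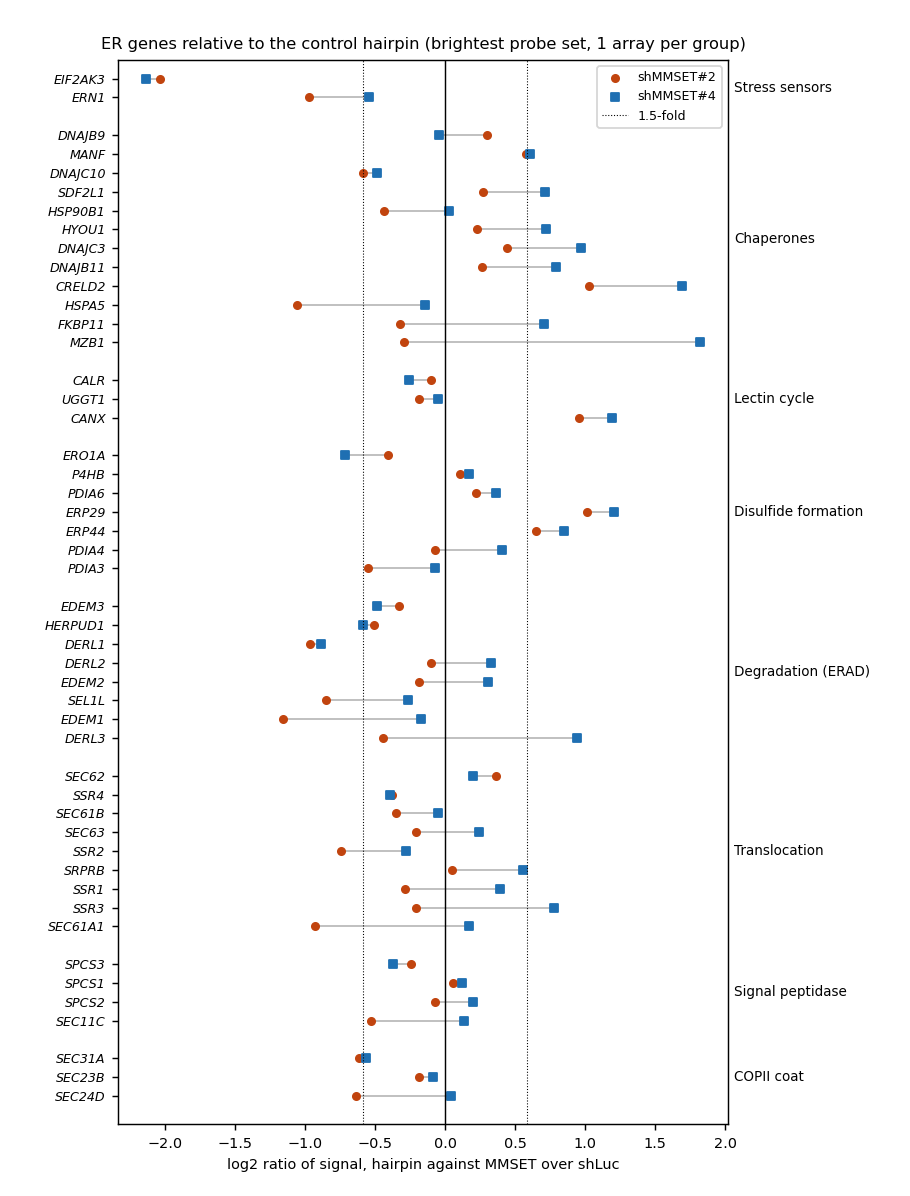
Log2 ratio of signal over shLuc (horizontal axis) for each measured ER gene by role, with shMMSET#2 as circles and shMMSET#4 as squares, joined by a grey line, on the brightest probe set and 1 array per group. EIF2AK3 lies lowest with both hairpins at -2.04 and -2.14, and most squares lie to the right of their circles.

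Promoters of the family were searched for the elements through which ATF6 and XBP1 act, because genes of this machinery are known to share them. The elements were the ER stress response element ERSE (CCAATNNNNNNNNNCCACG), ERSE-II (ATTGGNCCACG) and the unfolded protein response element UPRE (TGACGTGG), each on both strands, in RefSeq windows of GRCh38.p14 that run from 250 bases before to 50 bases after a start site. The letters of UPRE and ERSE-II can overlap, as they do in HYOU1. Windows were found for 47 of the 52 members. ERSE was present in 6 of these members and in 25 of 27305 genes in all (0.0916%). ERSE-II was present in 3 members and in 0.0696% of genes, and UPRE in 6 members and in 0.927% of genes. In all, 14 of the 47 had at least 1 element, namely CALR, CANX, CRELD2, DNAJC10, HERPUD1, HSP90B1, HSPA5, HYOU1, PDIA6, SDF2L1, SEC62, SSR3, SSR4 and TXNDC5, against 1.08% of genes. A match describes letters only, and no match says only that these letters are not in the window.

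Windows of 5 members are shown because their genes hold elements of the same response and had unlike values: HSPA5 was lower with shMMSET#2 and near shLuc with shMMSET#4, CRELD2 and CANX were higher with both, and HYOU1 and SDF2L1 were higher with shMMSET#4. Sequences read 5′ to 3′ on the strand of the gene, and capitals mark the fixed letters of an element. They lie at chr9:125241294-125241593 (minus strand, HSPA5), chr22:49918384-49918683 (plus, CRELD2), chr5:179698679-179698978 (plus, CANX), chr11:119057156-119057455 (minus, HYOU1) and chr22:21642052-21642351 (plus, SDF2L1) in GRCh38.p14. The ERSE lies 47 bases before the start in HSPA5, 61 bases before it in CRELD2 and 132 bases before it in the CANX window shown, and HYOU1 has a pair of ERSE-II, one of which overlaps a UPRE. CANX has 4 windows, and the same ERSE lies in 3 of them, so its distance depends on the start site: it is 170 bases before another start and spans the remaining one.
HSPA5: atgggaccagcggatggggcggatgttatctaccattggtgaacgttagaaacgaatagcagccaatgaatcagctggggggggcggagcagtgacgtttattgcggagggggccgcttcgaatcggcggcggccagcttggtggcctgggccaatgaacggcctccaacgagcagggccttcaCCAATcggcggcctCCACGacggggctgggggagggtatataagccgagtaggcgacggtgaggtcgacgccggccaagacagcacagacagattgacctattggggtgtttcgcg
CRELD2: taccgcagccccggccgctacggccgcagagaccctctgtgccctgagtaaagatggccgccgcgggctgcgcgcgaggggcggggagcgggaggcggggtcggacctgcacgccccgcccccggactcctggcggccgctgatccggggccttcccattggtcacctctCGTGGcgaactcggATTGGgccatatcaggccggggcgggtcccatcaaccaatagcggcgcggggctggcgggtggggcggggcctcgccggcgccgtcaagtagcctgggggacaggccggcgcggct
CANX: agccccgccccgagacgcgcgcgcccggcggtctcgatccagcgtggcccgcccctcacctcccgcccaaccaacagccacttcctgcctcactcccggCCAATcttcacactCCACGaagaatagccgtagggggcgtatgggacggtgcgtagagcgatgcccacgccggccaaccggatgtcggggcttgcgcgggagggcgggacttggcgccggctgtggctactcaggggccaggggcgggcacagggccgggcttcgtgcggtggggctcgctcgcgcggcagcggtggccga
HYOU1: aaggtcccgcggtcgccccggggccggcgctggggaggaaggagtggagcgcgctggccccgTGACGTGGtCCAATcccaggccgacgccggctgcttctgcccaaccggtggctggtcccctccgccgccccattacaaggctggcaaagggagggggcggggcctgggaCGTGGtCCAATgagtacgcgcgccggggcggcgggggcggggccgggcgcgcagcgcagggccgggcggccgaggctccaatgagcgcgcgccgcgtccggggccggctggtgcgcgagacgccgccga
SDF2L1: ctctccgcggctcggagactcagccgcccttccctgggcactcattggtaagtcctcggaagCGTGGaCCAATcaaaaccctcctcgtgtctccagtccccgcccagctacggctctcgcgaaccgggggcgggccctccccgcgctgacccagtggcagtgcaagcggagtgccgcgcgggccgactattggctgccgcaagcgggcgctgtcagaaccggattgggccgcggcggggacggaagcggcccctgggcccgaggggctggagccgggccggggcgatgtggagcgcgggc

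The 13 measured members with an element had a median log2 ratio of 0.23 for shMMSET#4 over shMMSET#2, and the 30 measured members without one had a median of 0.43. Over all genes tested the median was 0.00. Of these members, 3 of 13 and 7 of 30 were at least 1.5-fold higher with shMMSET#4, against 25% of all members and 16.9% of all genes. Neither share was far from that of the members as a whole or from the background. At any size, 9 of 13 and 25 of 30 lay above 0, against 50% of all genes.

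Among the sensors, EIF2AK3 showed the largest difference from shLuc of any member with both hairpins. The gene encodes PERK, which slows translation under ER stress. Its signals were 10824, 2636 and 2463, that is 4.11-fold and 4.39-fold lower. The hairpin arrays thus lay close together and far from the control. The value rests on 1 probe set, since the other was at the floor on all arrays. ERN1, which encodes IRE1, the sensor that splices XBP1 mRNA, had signals of 2528, 1285 and 1732. It was lower by 1.97-fold with shMMSET#2 and by 1.46-fold with shMMSET#4. All 3 ERN1 probe sets were below shLuc with both hairpins, with log2 ratios from -1.52 to -0.73 and from -1.13 to -0.55.

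**Figure D3:**
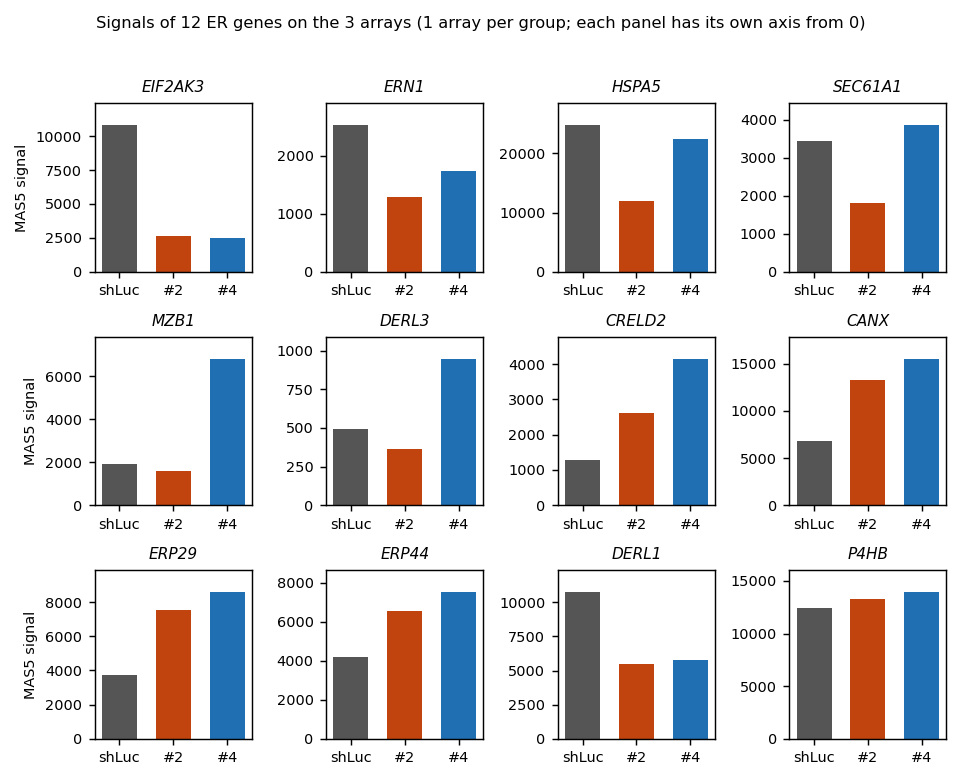
MAS5 signal (vertical axis, linear, from 0) of 12 ER genes on the shLuc, shMMSET#2 and shMMSET#4 arrays, 1 bar per array and no replicates. EIF2AK3 and DERL1 are lower with both hairpins, CRELD2, CANX, ERP29 and ERP44 are higher with both, and HSPA5 and SEC61A1 are low only on the shMMSET#2 array.

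Of the 12 chaperones and their partners, 1 was at least 1.5-fold higher and 2 were lower than shLuc with shMMSET#2, where 16.2% and 22.5% of all genes were. With shMMSET#4, 8 were higher and 0 were lower, where 17.3% and 20.6% of all genes were. The median log2 ratios were 0.24 and 0.71, and 7 of the 12 lay above shLuc at any size with shMMSET#2 and 9 with shMMSET#4. HSPA5 (BiP), the Hsp70 of the ER, had signals of 24800, 11922 and 22398. It was lower by 2.08-fold with shMMSET#2 and by 1.11-fold with shMMSET#4, so that the control and shMMSET#4 arrays were alike and the shMMSET#2 array stood apart. A dimmer HSPA5 probe set gave -1.48 and -0.21 on the log2 scale. HSP90B1 (GRP94), the Hsp90 of the ER, had signals of 14308, 10565 and 14586, again lowest with shMMSET#2, at a size of 1.35-fold.

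CRELD2, a secreted product of ER stress, was the only chaperone group member higher with both hairpins, with signals of 1289, 2626 and 4154, which is 2.04-fold and 3.22-fold above shLuc on its single probe set. MZB1, a plasma cell cofactor of GRP94 that aids antibody secretion, had signals of 1930, 1578 and 6817. It was 3.53-fold higher than shLuc with shMMSET#4 alone, and its second probe set gave a log2 ratio of 1.86 there and -0.03 with shMMSET#2. FKBP11, a prolyl isomerase of secretory cells, had signals of 9927, 7937 and 16196, so the shMMSET#4 array was highest. All 3 FKBP11 probe sets were below shLuc with shMMSET#2 and above it with shMMSET#4.

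Of the 6 partners of BiP DNAJC3, DNAJB11, HYOU1, SDF2L1, DNAJC10 and DNAJB9, 4 were at least 1.5-fold higher with shMMSET#4, where 17.3% of all genes were. These 6 are a part of the chaperones and partners already counted above, not a separate set. DNAJC3 (P58IPK), which also restrains PERK, had signals of 1448, 1970 and 2839, and DNAJB11 had signals of 9403, 11274 and 16271. With shMMSET#4 they were 1.96-fold and 1.73-fold above shLuc, and with shMMSET#2 their log2 ratios were 0.44 and 0.26. HYOU1, a nucleotide exchange factor of BiP, was 1.65-fold higher with shMMSET#4 and 1.17-fold with shMMSET#2. SDF2L1, which works with DNAJB11, was 1.21-fold higher with shMMSET#2 and 1.64-fold with shMMSET#4. MANF, a secreted stress protein, was 1.52-fold higher with shMMSET#4 and 1.49-fold with shMMSET#2, so it fell on either side of the threshold by a narrow margin. DNAJC10 (ERdj5), a reductase in degradation, just passed the threshold with shMMSET#2, at a log2 ratio of -0.59, and had -0.48 with shMMSET#4. All 5 of its probe sets were below shLuc with shMMSET#2. DNAJB9 (ERdj4), a repressor of IRE1, had signals of 5090, 6258 and 4936. On brightest probe sets it was the member with the lowest ratio of shMMSET#4 to shMMSET#2, at -0.34.

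In the lectin cycle, which holds glycoproteins for folding, CANX (calnexin) had signals of 6816, 13224 and 15529. Both hairpin arrays were higher, 1.94-fold and 2.28-fold, and all 4 CANX probe sets above the floor gave positive ratios with both, from 0.51 to 0.96 and from 0.76 to 1.19. Calreticulin (CALR), its soluble relative, had signals of 4423, 4128 and 3697, near shLuc with either hairpin. UGGT1, the enzyme that marks misfolded glycoproteins for another round, had signals of 1200.2, 1054 and 1156. CANX and CALR hold an ERSE each, and their values were unlike.

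Among the 7 measured genes of disulfide formation, ERP29 and ERP44 passed 1.5-fold upward with both hairpins, and ERO1A was lower with shMMSET#4. The other 4 did not pass 1.5-fold. Of all genes, 8.6% were higher with both hairpins and 20.6% were lower with shMMSET#4. ERP29, a folding factor of the isomerase family without a redox site, had signals of 3725, 7520 and 8583, 2.02-fold and 2.30-fold above shLuc. It has 1 probe set. ERP44, which retains ERO1 and unassembled antibody chains in the early secretory pathway, had signals of 4186, 6548 and 7520, 1.56-fold and 1.80-fold above shLuc. Its dimmer probe sets were higher with shMMSET#2, by 0.67 and 1.88 on the log2 scale, but gave -0.11 and 0.28 with shMMSET#4. The higher ERP44 level with shMMSET#4 therefore rests on the brightest probe set.

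P4HB, the main protein disulfide isomerase, had signals of 12387, 13300 and 13928, the smallest spread over the arrays in its group. PDIA6 was 1.16-fold and 1.29-fold higher than shLuc. PDIA3, the isomerase that works with calnexin, had signals of 16845, 11470 and 16053, lowest with shMMSET#2 at 1.47-fold. PDIA4 was 1.05-fold lower with shMMSET#2 and 1.32-fold higher with shMMSET#4. ERO1A, the oxidase that recharges the isomerases, had signals of 3771, 2841 and 2295 and was 1.64-fold lower with shMMSET#4. Its probe sets were not alike, with log2 ratios between -0.41 and 0.57 for shMMSET#2 and between -0.72 and 0.06 for shMMSET#4.

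In the degradation pathway, all 8 measured genes had lower signals with shMMSET#2 than with shLuc, where 46.1% of all genes had higher ones. Of the 8, 3 passed 1.5-fold, against 22.5% of all genes. With shMMSET#4, 2 were at least 1.5-fold lower and 1 was higher, against 20.6% and 17.3% of all genes. DERL1, a channel component, had signals of 10744, 5500 and 5807, 1.95-fold and 1.85-fold lower. A second probe set gave -0.93 and -1.06, another gave 0.10 and 0.51, and a dim one gave 0.47 and -0.25. With arrays scaled to the same median, or with the mean over probe sets, DERL1 no longer passed the threshold with both hairpins. HERPUD1, a scaffold of the degradation complex, had signals of 25501, 17922 and 16963, with log2 ratios of -0.51 and -0.59.

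EDEM1, a mannosidase that selects glycoproteins for degradation, had signals of 1179, 528 and 1045. It was lower by 2.23-fold with shMMSET#2 and by 1.13-fold with shMMSET#4. SEL1L, the partner of the ligase HRD1, had signals of 6266, 3476 and 5220, and its 4 probe sets were all lower with shMMSET#2, from -1.27 to -0.67. DERL3, an XBP1-dependent relative of DERL1, had signals of 495, 364 and 948. It was 1.91-fold higher with shMMSET#4, and its second probe set above the floor was 1.96 higher on the log2 scale. With shMMSET#2 these probe sets gave -0.44 and 0.41, so their direction there was not settled. DERL2, a relative of DERL1, had signals of 1277, 1189 and 1598. The EDEM1 relatives EDEM2 and EDEM3 had log2 ratios to shLuc of -0.19 and -0.33 with shMMSET#2 and of 0.31 and -0.49 with shMMSET#4.

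At the translocon, SEC61A1, the pore subunit, was low only with shMMSET#2. Its signals were 3427, 1800 and 3855, 1.90-fold lower and 1.12-fold higher. Of the 9 measured genes of translocation, 2 were lower with shMMSET#2 and 1 was higher with shMMSET#4, where 22.5% and 17.3% of all genes were. SSR2, a subunit of the translocon-associated protein complex, had signals of 23568, 14066 and 19382, 1.68-fold lower with shMMSET#2. SSR3, another subunit, had signals of 5746, 4966 and 9849, 1.71-fold higher with shMMSET#4. Its next brightest probe set gave a log2 ratio of -0.01 there, and dimmer ones gave 0.27 and 0.79, so this difference depends on the probe set. SSR1 had signals of 15025, 12327 and 19727, and all 6 of its probe sets were higher with shMMSET#4 than with shMMSET#2, by 0.55 to 0.83 on the log2 scale. SSR4 had signals of 40519, 31173 and 30872, so this subunit was alike with both hairpins.

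SEC61B, SEC63, SRPRB and SEC62 lay within 1.5-fold of shLuc with either hairpin, judged by the brightest probe set of each. SRPRB, the beta subunit of the signal recognition particle receptor, came nearest, at 1.47-fold higher with shMMSET#4. Its dimmer probe sets gave log2 ratios of 0.98 and 0.00 there. Probe sets of SEC63 disagreed in sign with shMMSET#2, from -0.77 to 0.84. SEC62, which helps post-translational import and is a receptor for ER-phagy, had signals of 6926, 8922 and 7959 on its brightest probe set. Of its dimmer probe sets, 3 were higher by 1.63 to 2.15 on the log2 scale for shMMSET#2, and by 1.60 to 1.90 for shMMSET#4, so that the size of the SEC62 difference depends on the probe set.

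None of the signal peptidase genes SEC11C, SPCS1, SPCS2 and SPCS3 passed 1.5-fold against shLuc when only the brightest probe set was counted. SEC11C, a catalytic subunit, had signals of 23906, 16531 and 26279, lowest with shMMSET#2. SPCS1, an accessory subunit, had signals of 25940, 26935 and 28220, within 1.09-fold of shLuc. Probe sets of SPCS2 disagreed in sign with shMMSET#4, from -0.70 to 0.69. For SPCS3 the brightest probe set gave a log2 ratio of -0.38 with shMMSET#4, and the dimmer ones gave 0.29 and 0.80. The direction of SPCS3 with shMMSET#4 thus depends on the probe set. Of the COPII coat genes, SEC31A, of the outer coat, had signals of 9096, 5950 and 6159, 1.53-fold and 1.48-fold lower. SEC24D, a cargo adaptor, had signals of 2229, 1434 and 2290, 1.55-fold lower with shMMSET#2 and 1.03-fold higher with shMMSET#4. Its dimmer probe set above the floor on all arrays was lower with both, with log2 ratios of -1.23 and -1.53, so the value with shMMSET#4 depends on the probe set. SEC23B, of the inner coat, had signals of 5283, 4644 and 4983.

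The comparison of the hairpins with each other does not use the shLuc array. The 12 members at least 1.5-fold higher with shMMSET#4 were MZB1 (4.32-fold), DERL3 (2.60-fold), SEC61A1 (2.14-fold), FKBP11 (2.04-fold), SSR3 (1.98-fold), EDEM1 (1.98-fold), HSPA5 (1.88-fold), SSR1 (1.60-fold), SEC24D (1.60-fold), SEC11C (1.59-fold), CRELD2 (1.58-fold) and SEL1L (a log2 ratio of 0.59). They came from the chaperones (4), degradation (3), translocation (3), signal peptidase (1) and COPII (1), and none came from disulfide formation or the lectin cycle. On brightest probe sets, the lowest log2 ratios of shMMSET#4 to shMMSET#2 were those of DNAJB9 at -0.34, ERO1A at -0.31 and SEC62 at -0.16. Some dimmer probe sets went lower, to -1.60 for ERP44, -1.04 for ERO1A and -0.91 for DNAJB9. The brightest of ERP44 gave 0.20, and another of ERO1A gave 0.15. Among all genes tested the median difference between the hairpin arrays was 1.28-fold, and 95% of genes differed by no more than 2.37-fold. Apart from MZB1 and DERL3, the single ratios of the members on their brightest probe sets are inside that spread. Several probe sets of a gene are repeat measurements on the same arrays, not replicates. Of 125 member probe sets above the floor on both hairpin arrays, 93 (74.4%) were higher with shMMSET#4, against 47.6% of 22932 probe sets of all genes tested. Of these, 34 member probe sets (27.2%) were at least 1.5-fold higher and 7 (5.6%) were at least 1.5-fold lower, against 13.4% and 13.6%.

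**Figure D4:**
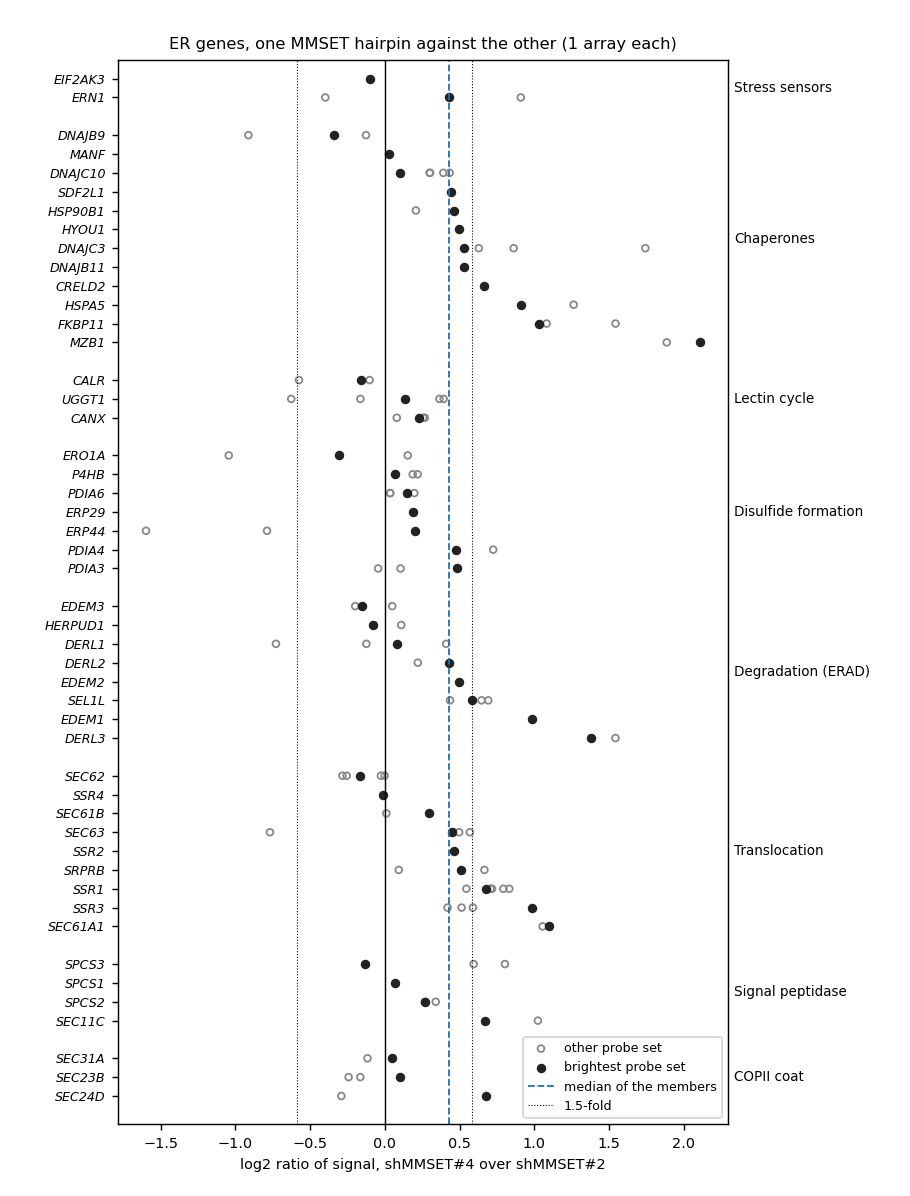
Log2 ratio of signal of shMMSET#4 over shMMSET#2 (horizontal axis) for the probe sets of each ER gene above the floor on both hairpin arrays, with the brightest probe set filled and the others open, 1 array each. The dashed line is the member median of 0.43, and no filled point lies beyond 1.5-fold on the left.

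Of 15 regulators of the pathway outside the list, 4 were at least 1.5-fold higher with shMMSET#4 than with shMMSET#2, 2 were lower and 9 were neither, with a median log2 ratio of 0.25. Of all genes, 16.9% were higher and 13.6% lower. XBP1 had signals of 16087, 8577 and 14115, which places it 1.65-fold higher with shMMSET#4 than with shMMSET#2. ATF4 had signals of 28464, 13943 and 22448, 1.61-fold higher with shMMSET#4. DDIT3 (CHOP), a target of ATF4 linked to cell death, was 1.62-fold lower with shMMSET#4, with signals of 923, 1078 and 663. ATF6 had signals of 2481, 4576 and 4094 and so was higher with both hairpins. Against shLuc, 3 of the 15 were higher with both (ATF6, CREB3 and NFYA), 1 was lower (CREB3L2) and 11 were neither. CREB3L2, an ER-bound factor of secretory genes, was 3.01-fold and 2.81-fold lower. CREB3, its relative, was 2.37-fold and 2.79-fold higher, and NFYA, a subunit of the factor that binds the CCAAT part of ERSE, was 1.64-fold and 2.22-fold higher.

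Plasma cell markers, some of which are regulators, differed between the hairpins as well. All 9 plasma cell markers on the list were higher with shMMSET#4 than with shMMSET#2, where 50% of all genes were. Of the 9, 7 passed 1.5-fold, against 16.9% of all genes, and the median log2 ratio was 0.90. SDC1 and CD38 did not pass it, at 1.09-fold and 1.17-fold. The signals of the 9 markers summed to 76908, 38648 and 75796. XBP1 and MZB1 are on this list too. IRF4 was 2.19-fold, PRDM1 2.61-fold and SLAMF7 3.89-fold higher with shMMSET#4. NSD2 itself was higher with shMMSET#4 than with shMMSET#2 on all 6 of its probe sets, by 1.06-fold on the brightest. The part of these genes in the ER gene values was not tested.

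Wider lists of the pathway were counted in the same way. Their counts stand against 16.9% of all genes higher and 13.6% lower with shMMSET#4 than with shMMSET#2, and 8.6% higher and 11.9% lower than shLuc with both hairpins. Of 27 tested genes of N-glycosylation, 7 were at least 1.5-fold higher with shMMSET#4 than with shMMSET#2 and 0 were lower, with a median of 0.27. They were the glucosidase genes MOGS and GANAB and the genes of sugar chain assembly DPAGT1, ALG2, ALG3, ALG5 and DPM2. GANAB had signals of 2604, 836 and 1737. Against shLuc, 2 genes of this list were higher with both hairpins (TMEM258 at 1.61-fold and 2.20-fold, ALG1 at 2.56-fold and 2.45-fold), 1 was lower (TUSC3, at least 2.62-fold with each, since both hairpin arrays were at the floor) and 24 were neither.

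Of 34 other folding genes, 4 were higher with both hairpins than with shLuc, 3 were lower and 27 were neither. SELENOF, a selenoprotein that binds UGGT1, had signals of 2744, 8204 and 10981, 2.99-fold and 4.00-fold higher, and SELENOK, a selenoprotein of degradation, was 2.37-fold and 2.78-fold higher. FKBP14, a prolyl isomerase, was 2.20-fold and 4.28-fold lower. Between the hairpins this list was split, with 4 genes higher and 5 lower with shMMSET#4 and a median of 0.05. Of 27 other genes of translocation, 2 were higher with both and 3 were lower. SRPRA, the alpha subunit of the receptor that SRPRB anchors, was 2.68-fold and 4.52-fold higher, TRAM2, of a family that borders the translocon, 2.11-fold and 1.98-fold lower, and EMC1, of the complex that inserts membrane proteins, 2.83-fold and 1.92-fold lower. Their median between the hairpins was 0.09.

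Of 39 tested genes of COPII, COPI and ER-to-Golgi traffic, 4 were higher with both hairpins than with shLuc, 3 were lower and 32 were neither. SEC22B, a SNARE, was 1.76-fold and 2.23-fold higher and SAR1B, the GTPase that starts the COPII coat, 1.94-fold and 2.04-fold. ARF1, the GTPase of the COPI coat, was 1.82-fold and 2.93-fold lower. Of 19 other degradation genes, 1, ERLIN1, was higher with both (1.87-fold and 2.09-fold) and none was lower. The medians between the hairpins were -0.01 for traffic and -0.05 for degradation, against 0.43 for the members.

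Of 6 tested genes of secreted cargo, 3 were at least 1.5-fold higher with shMMSET#4 than with shMMSET#2 and 0 were lower. Of all genes, 16.9% were higher and 13.6% lower. The median log2 ratio was 0.39, and the 3 higher genes, IGHG1, IGLL5 and IGHM, were all dim. The brightest of the 6, IGKC and JCHAIN, were alike with both hairpins. IGKC, the kappa light chain, had signals of 43833, 30930 and 30134. JCHAIN, which joins polymeric antibodies, had signals of 55012, 40928 and 39387. They were 1.45-fold and 1.40-fold lower than shLuc with shMMSET#4. The probe set of IGKC can bind transcripts of related genes. IGHG1 was dim, with signals of 85.3, 67.9 and 484, and was 7.13-fold higher with shMMSET#4 than with shMMSET#2. IGLL5 and IGHM, also dim, were higher by no less than 1.91-fold and 1.56-fold, since the shMMSET#2 array was at the floor.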

How the data were processed

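The deposited values are linear MAS5 intensities (MAS5 per the submitters' processing notes, with no version given), 1 column per array. GeneSpring is named as analysis software in the design text, which also names another array of the U133 family. The 54675 probe sets are those of HG-U133 Plus 2.0. After 62 control probe sets were left out, 41091 had 1 symbol, 1801 had several and 11721 were unnamed. Symbols were updated by Entrez ID to RefSeq (GRCh38.p14) for 41037.

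Without further scaling, signals were floored at their 40th percentile (41.2) and log2-transformed. A gene counted as tested where its signal exceeded an array's median on 1 or more arrays (13296 genes). A called gene is 1.5-fold apart. The calls with both hairpins were checked on simulated arrays that held large changes and little noise. Calls near 1.5-fold and those between the hairpins were not checked in this way.

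Members and lists were chosen with earlier results of these data known. Named were members past 1.5-fold with both hairpins, the member with the highest shLuc signal of each role group, both sensors, the 3 extremes on each side between the hairpins and members whose probe sets disagreed in sign at 1.5-fold, and, in other lists, up to 3 genes by the smaller ratio of like sign, with XBP1, ATF6, ATF4 and DDIT3. The other members and genes named were chosen after their values were seen. Alternatives covered scaling, floor, filter, probe set choice and threshold. Python 3.11.15 with numpy 2.4.6, pandas 2.3.3 and matplotlib 3.10.9 was used.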

Additional observations from a re-analysis of the deposited data

Results flagged for a closer look

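In 8 members the hairpins lay on opposite sides of shLuc and at least 1.5-fold apart, which is why they are listed, and the difference was not tested. The log2 ratio of shMMSET#4 to shMMSET#2 was 2.11 for MZB1, 1.38 for DERL3, 1.10 for SEC61A1, 1.03 for FKBP11, 0.99 for SSR3, 0.68 for SSR1, 0.68 for SEC24D and 0.67 for SEC11C. All 8 were below shLuc with shMMSET#2 and above it with shMMSET#4 on their brightest probe sets. With arrays set to the same median signal, MZB1 had a log2 ratio of 0.03 with shMMSET#2 in place of -0.29 and so left its side of shLuc. DERL3 (-0.12 and 1.32) and SEC61A1 (-0.61 and 0.55) kept theirs. The other flagged members were not followed under this scaling, which raises the ratios with shMMSET#2. Before it, SSR3 (-0.21) and SSR1 (-0.29) lay no further below shLuc than MZB1, and FKBP11 (-0.32) lay little further. The opposite sides of these members therefore depend on the scaling too.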

How the results depend on the processing

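Each count and median was recomputed under 8 or 9 alternatives, and those of the comparison between the hairpins were partly chosen after seeing the data. With arrays scaled to the same median signal, members lower with both hairpins became 1 and higher 7, against 5.28% and 19.7% of all genes. Members lower with shMMSET#2 became 6 and higher 9, and lower with shMMSET#4 1 and higher 20, with the shares of all genes given above. The median log2 ratio then turned to 0.0923 with shMMSET#2 and moved to 0.53 with shMMSET#4, because this scaling raises all genes. With a 2-fold threshold, the counts were 1 lower and 2 higher with both, 3 lower and 2 higher with shMMSET#2, 1 lower and 4 higher with shMMSET#4, and 4 higher with shMMSET#4 than with shMMSET#2. Of all genes, 4.35% were then lower and 2.83% higher with both. The shares were 10.7% lower and 5.69% higher with shMMSET#2, and 8.95% lower and 6.74% higher with shMMSET#4. The last count is 8.33% of members against 6.6% of all genes, so at 2-fold the share higher with shMMSET#4 was near the background. Members lower with both became 4 when probe sets of a gene were averaged, against 9.2% of all genes. They were also 4 when those named _x_at or _s_at were left out, against 13.7%. With either of these choices 1 member, ERP44, was lower with shMMSET#4 than with shMMSET#2, against 9.92% and 15.6% of all genes. The log2 ratio of ERP44 over shLuc with shMMSET#4 turned to -0.11 when the latter were left out. The median between the hairpins was 0.30 to 0.49 over all alternatives run. The counts of members higher with shMMSET#4 than with shMMSET#2 were 10 to 14 at 1.5-fold, where 10.4% to 19.6% of all genes were. SEL1L was lost under quantile normalization, DERL3 and EDEM1 under the filter on mean signal, SEC24D with averaged probe sets, and SEC61A1 and SEL1L when _x_at and _s_at probe sets were left out. No paired analysis was possible because each group has 1 array. With 1 array per group, noise between cultures cannot be told apart from an effect of a hairpin, and 1 shLuc array sets both ratios to control.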

Other observations

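Some ER genes outside the member list went against the members in the comparison of the hairpins, being lower with shMMSET#4 than with shMMSET#2. Their choice followed a look at their values. ERO1B, the relative of ERO1A, had signals of 846, 2215 and 891 (in the order shLuc, shMMSET#2, shMMSET#4). NUCB2, a calcium-binding secretory protein, had signals of 1728, 4070 and 1826, and YOD1, a deubiquitinase of degradation, had signals of 1498, 4820 and 1900. In these 3 genes the shMMSET#2 array alone was high. ERLIN2, a component of a degradation complex, had signals of 1736, 2736 and 1086, and TMX3, a membrane-bound isomerase, had signals of 3803, 4899 and 2240.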
